A study of Mus musculus with 24 samples.

Results

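Neurospheres are floating clusters that neural progenitors form when they are kept in suspension with EGF and FGF2. RNA was measured in such cultures after 24 h, from 3 *Cep135*(Δ8/Δ8) embryos (mutants 1, 2 and 6) and 3 *Cep135*(+/+) embryos (controls 3, 4 and 5), with 1 library per embryo. These are the 6 libraries whose labels give a culture time of 24 h, of 24 libraries in all. The Δ8 allele carries a deletion of 8 bp in exon 2 of *Cep135*, made with CRISPR/Cas9 in the germ line, so every cell of a mutant embryo has it, and the labels write this genotype as *Cep135* (-/-). Both groups were dissociated from the dorsal telencephalon of E14.5 embryos, grown in the same medium and given no drug. The same 6 embryos also gave an uncultured E14.5 cortex and a 12 h culture each, and 6 other embryos gave E11.5 cortices. A library holds the RNA of a whole culture, so fewer cells of a type and less RNA per cell cannot be told apart.

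CEP135 is a structural protein of the centriole, the core of the centrosome. When centrioles are lost or mitosis is prolonged, vertebrate cells can stabilize the transcription factor p53, which switches on genes that stop the cell cycle, such as *Cdkn1a*, and genes that promote cell death. In the dorsal telencephalon radial glia divide to renew themselves and give rise to intermediate progenitors and glutamatergic neurons, which then switch on transcription factors of the NeuroD family, layer-specific factors and the genes of axons and synapses. Along its medial edge the same tissue borders the cortical hem and the choroid plexus, which makes cerebrospinal fluid and expresses large amounts of transthyretin.

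The libraries differed in more than genotype. The mutant libraries held 7903426 to 11645213 reads on genes and the control libraries 4732781 to 5709443. *Gm42418*, a noncoding gene that collects reads of ribosomal RNA, took 20.5% to 23.0% of mutant reads against 6.26% to 13.9% of control reads, and mitochondrial genes took 4.59% to 5.41% against 4.96% to 5.59%. Neither depth nor the *Gm42418* share overlapped between the groups, and their part in the differences below was not tested except by a fit with the *Gm42418* share as a term. By *Xist* and Y-linked transcripts, mutants 1 and 2 were female and the other 4 embryos male, so that no control was female. The cultures expressed the progenitor genes *Sox2* (1474 to 2085 normalized read counts), *Nes* (987 to 1488) and *Vim* (5732 to 8636), and also neuronal *Tubb3* (5313 to 7509.8). A normalized read count is the number of reads divided by the size factor of the library. Hemoglobin and other erythroid genes summed to between 45692 and 79536, without a difference between the groups larger than their spread (exact permutation test, two-sided, p = 1, n = 3 per group).

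Markers of other cell types were summed over each list in each library. Interneuron and ventral markers summed to between 4542 and 4781 in mutants and between 4302 and 5001 in controls. Those of microglia summed to 47.1 to 212 and 61.4 to 121, and those of endothelium and pericytes to 71.7 to 168 and 54.6 to 91.0, and both pairs of ranges overlapped. In 4 lists the groups did not overlap, and the mutants were higher in each. Choroid plexus and hem markers reached 5929 to 18221 in mutants against 2119 to 4735 in controls, hepatocyte markers other than *Ttr* 145 to 514 against 12.5 to 33.7, markers of meninges and fibroblasts 280.2 to 368 against 172 to 231, and Cajal-Retzius markers 2322 to 2481 against 1982 to 2063. Each of these 4 gave p = 0.1 in the exact permutation test (two-sided, n = 3 per group), which is the smallest p that 3 embryos against 3 allow. In the mutants most of the choroid plexus and hem sum was *Ttr*, at 7142, 16344 and 4826 against 1592, 3509 and 764 in controls. That sum was not compared without *Ttr*. Of the 12 Cajal-Retzius genes 8 had a positive and 4 a negative log2 fold change, and 3 had all mutants above all controls. For the 7 tested genes of meninges and fibroblasts these counts were 6, 1 and 1, and 7.15% of all genes had all mutants above.

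**Figure D1:**
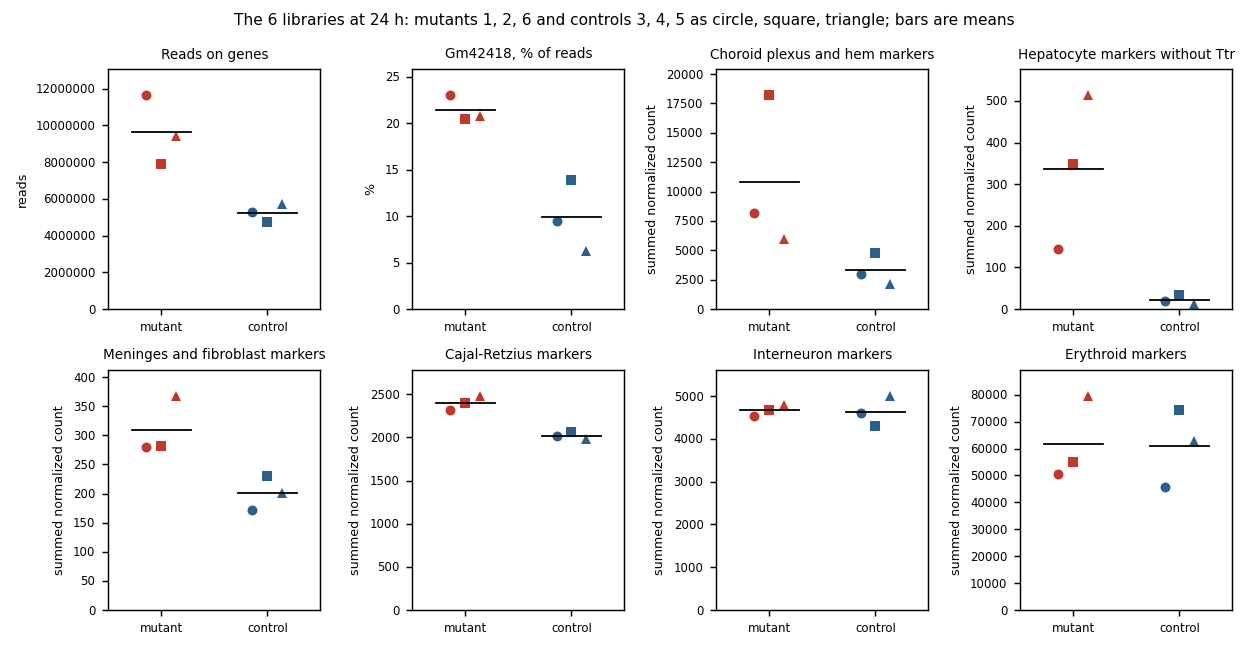
Depth, *Gm42418* share and summed marker lists of the 6 libraries at 24 h, on linear axes that start at 0, with 1 symbol per embryo and a bar at the group mean. The groups do not overlap in reads, in the *Gm42418* share or in the choroid plexus, hepatocyte, meningeal and Cajal-Retzius sums, and they overlap in the interneuron and erythroid sums.

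*Cep135* itself did not differ in amount. Mutants 1, 2 and 6 had 193, 265 and 295 normalized read counts, and controls 3, 4 and 5 had 217, 276 and 185. The groups overlapped, with a log2 fold change of 0.15 ± 0.21 (SE, n = 3 per group, adjusted p = 0.850, limma). Libraries were primed at the polyA tail and read near the 3′ end of transcripts, so these reads do not cover the deletion and do not check the genotypes. The gene lies on the plus strand of chromosome 5 (76588698 to 76646466, GRCm38). Of the other 20 measured genes of centriole duplication and structure, none passed the test. *Plk4*, the kinase that starts centriole duplication, was at 148, 161 and 173 in mutants and 105, 87.6 and 116 in controls (adjusted p = 0.252, limma).

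The test across all genes compared the 2 genotypes with limma on log2(normalized read count + 1), for the 13300 genes whose average over these 6 libraries reached 10. At an adjusted p under 0.05 it called 36 genes (0.271%), with 16 higher (0.12%) and 20 lower (0.15%) in mutants. At an unadjusted p under 0.05, 602 genes were higher (4.53%) and 812 lower (6.11%). In all 36 called genes the 3 mutant values lay on one side of the 3 control values, as they did in 2156 of the 13300 genes (16.2%). The called genes that rose included the p53 targets *Cdkn1a*, *Ccng1* and *Psrc1*, the choroid plexus genes *Ttr* and *Clic6*, liver genes and genes of the cytoskeleton and matrix. Those that fell included 4 transcription factor genes, the axon and synapse genes *Chl1*, *Dab1*, *Cnih2* and *Adora1*, and the Wnt pathway genes *Wnt7b* and *Rspo3*. When reads were scaled to the total without *Gm42418* and mitochondrial genes, the count was again 36, 29 of them the same genes, but the split was 23 higher and 13 lower.

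The number of calls depended on single libraries and on what was adjusted for. It was 41, 13 and 12 without mutants 1, 2 and 6 and 7, 46 and 8 without controls 3, 4 and 5. *Frrs1l* and *Gm26917* were called in all 6 fits, and *Cdkn1a*, *Opcml* and *S100a6* in 5, 3 genes in 4, 6 in 3 and 7 in 2. *Alb*, *Wnt7b*, *St8sia5*, *Adora1*, *Lgals3*, *Ebf2*, *Dab1*, *Ptprn*, *Ednrb*, *Ttr* and *Kcnv1* were called in 1 fit, and *Spock1*, *Dmrta2*, *Luzp2* and *Mef2c* in 0. A term for embryo sex left 4 calls, 1 of them among the 36, and a term for the *Gm42418* share left 0 (limma, 644 genes at an unadjusted p under 0.05), while every one of the 36 kept its sign in both. With the *Gm42418* term the log2 fold change of *Ttr* went from 2.35 to 0.22, that of *Dab1* from -0.92 to -0.25 and that of *Cdkn1a* from 1.02 to 0.47. In proportion to the value without this term, these 3 shrank most among the 36. Others grew, such as *Ccng1* from 1.06 to 1.40 and *Opcml* from -1.14 to -1.42. The median ratio of the value with this term to the value without it was 0.79 for the called genes that rose and 1.10 for those that fell.

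**Figure D2:**
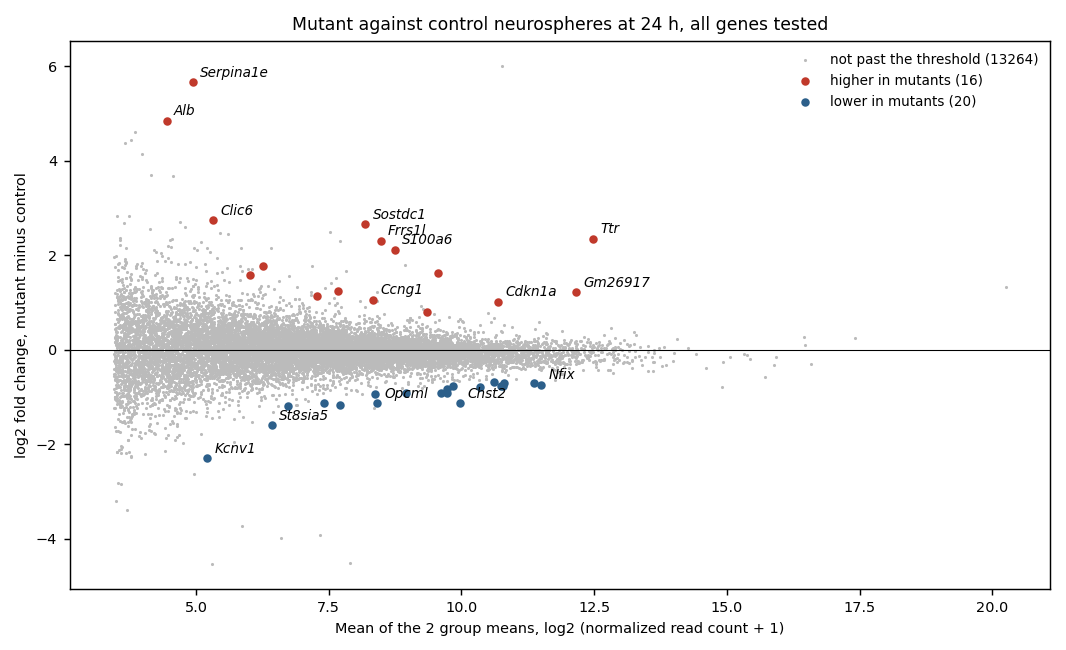
Level (x axis, mean of both group means as log2 of the normalized read count + 1) and log2 fold change of mutant over control (y axis) of the 13300 genes tested at 24 h. The 16 genes that rose and the 20 that fell are coloured, and of these *Serpina1e* (5.66) and *Alb* (4.85) have the largest fitted changes, at low levels.

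**Figure D3:**
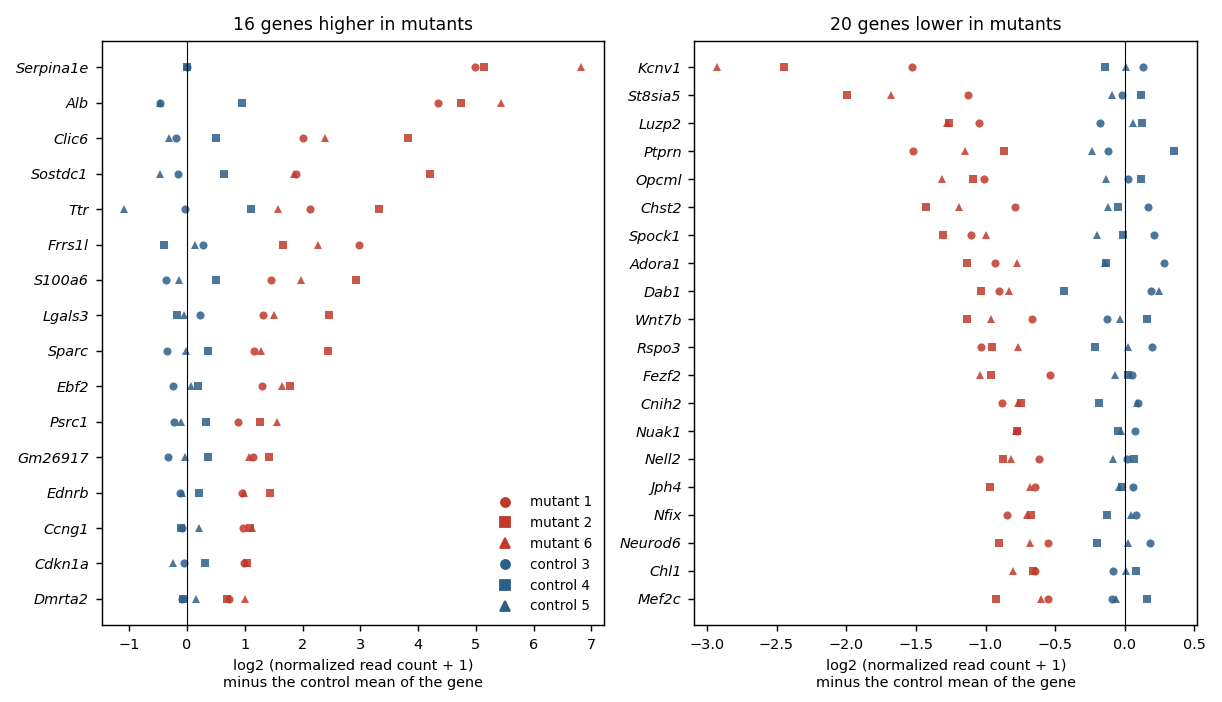
The 36 called genes in each library, as log2(normalized read count + 1) minus the mean of the 3 controls, with red symbols for mutants and blue for controls. No mutant value of a gene falls within the range of its controls, and mutant 2 (red squares) is the highest mutant in 10 of the 16 genes on the left and the lowest in 10 of the 20 on the right.

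The p53 targets are described first. *Cdkn1a* encodes p21, the inhibitor of cyclin-dependent kinases through which p53 stops the cell cycle, and *Ccng1* encodes cyclin G1, a p53 target in feedback on p53. Their promoters are shown because both carry matches to the half-site that p53 binds. The windows are RefSeq sequences on GRCm38.p6 from 250 bases before to 50 bases after a start site, 5′ to 3′ on the strand of the gene, with each half-site match of 10 bases in capitals. The *Cdkn1a* window is chr17:29090729-29091028 on the plus strand, and the *Ccng1* window is chr11:40755237-40755536 on the minus strand.
Cdkn1a: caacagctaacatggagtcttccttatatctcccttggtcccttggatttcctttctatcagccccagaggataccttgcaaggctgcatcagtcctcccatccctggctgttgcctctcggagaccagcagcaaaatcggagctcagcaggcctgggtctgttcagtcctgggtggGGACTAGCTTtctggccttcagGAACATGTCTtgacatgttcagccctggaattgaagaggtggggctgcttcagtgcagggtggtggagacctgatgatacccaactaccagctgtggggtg
Ccng1: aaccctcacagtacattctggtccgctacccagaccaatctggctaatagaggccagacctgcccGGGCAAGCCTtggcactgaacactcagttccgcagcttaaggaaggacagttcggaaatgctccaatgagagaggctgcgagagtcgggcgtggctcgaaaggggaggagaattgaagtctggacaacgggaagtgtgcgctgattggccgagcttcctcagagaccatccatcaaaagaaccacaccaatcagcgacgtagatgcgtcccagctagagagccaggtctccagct
The search used the published half-site pattern, which reads the same on both strands, so that 1 match counts for both and matches may overlap. A second *Cdkn1a* window, at the downstream start site, held 0 matches, as did both windows of *Psrc1*, the other p53 target called. Of all 32851 windows 8.36% held at least 1 match, as did windows of 2582 of 27025 genes (9.55%). Among the called genes with a window, these were 5 of 11 that rose (*Cdkn1a*, *Ccng1*, *Frrs1l*, *Sparc* and *Ednrb*) and 1 of 15 that fell (*Mef2c*). A match is a description of the letters and not a measured site of binding.

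*Cdkn1a* (chromosome 17, 29090976 to 29100727, plus strand) had 2158, 2248 and 2222 normalized read counts in mutants 1, 2 and 6. In controls 3, 4 and 5 it had 1050.0, 1348 and 920.1. The mutants lay close together and all above the controls, with a log2 fold change of 1.02 ± 0.14 (SE), or 2.02-fold (adjusted p = 0.0109, limma). Leaving out single libraries gave log2 fold changes of 0.89 to 1.17, and the call was lost only without control 5 (adjusted p = 0.0533, limma). It was also lost with the sex term (1.02, adjusted p = 0.106, limma) and with the *Gm42418* term, where the value was 0.47 (adjusted p = 0.939, limma).

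*Ccng1* (chromosome 11, 40748552 to 40755311, minus strand) was at 404, 441 and 454 in mutants and 194, 192 and 239 in controls. It rose by 1.06 ± 0.16 on the log2 scale (SE, adjusted p = 0.0150, limma), and the call was lost without control 3, mutant 2 or mutant 6 (adjusted p up to 0.0713). *Psrc1* (chromosome 3, 108383839 to 108388231, plus strand), a p53-responsive gene whose protein acts on spindle microtubules, was at 220.0, 285 and 353 in mutants and 101, 150.0 and 111 in controls. Its log2 fold change was 1.23 ± 0.22 (SE, adjusted p = 0.0348, limma), and it was called in 2 of the 6 fits with a library left out.

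Of the 22 listed p53 targets of arrest, repair and feedback, 20 passed the filter on low values. These 3 rose, none fell, and 18 of the 20 had a positive log2 fold change, with a median of 0.44 against -0.01 over all genes tested. At an unadjusted p under 0.05 there were 9 higher and 0 lower, and 10 had all mutants above all controls, as did 7.15% of all genes. *Rps27l*, a ribosomal protein-like p53 target, was at 698, 835 and 653 in mutants and 474, 453 and 421 in controls (log2 fold change 0.69, adjusted p = 0.0652, limma). *Zmat3*, an RNA-binding p53 target, was at 973, 798 and 829 against 490.2, 598 and 646 (0.59, adjusted p = 0.111, limma). *Cpt1c*, a carnitine palmitoyltransferase of neurons, was at 193, 219.6 and 166 against 98.3, 109.5 and 123 (0.80, adjusted p = 0.121, limma). The mutants were above all controls in each of these genes. The fit was repeated under 19 alternative settings, with other tools, scalings, added terms or a library left out. *Rps27l* was called under 4 of them, and *Zmat3* and *Cpt1c* under 1 each. *Mdm2*, which encodes the ligase that degrades p53 and is itself a target, was at 691, 593 and 641 in mutants and 713, 659 and 648 in controls, so that the groups overlapped.

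None of the 11 measured p53 targets of cell death passed the test, and 5 were higher and 1 lower at an unadjusted p under 0.05 (median log2 fold change 0.28). *Eda2r*, a death receptor of the TNF receptor family, was at 133, 91.1 and 126 in mutants and 34.1, 45.5 and 57.5 in controls (log2 fold change 1.34, adjusted p = 0.0677, limma). *Perp*, a membrane protein of desmosomes and p53-dependent death, was at 41.6, 45.5 and 47.1 against 8.19, 1.69 and 16.3 (adjusted p = 0.106, limma). Under the alternative settings *Eda2r* was called in 2 of 19 and *Perp* in 1 of 18. *Bax*, the pore-forming protein of mitochondrial death, overlapped between the groups, with 109, 229.8 and 161 in mutants and 135, 202 and 115 in controls. In the list of Bcl2 family members and caspases, none of the 20 measured genes passed the test. The lowest p-values were those of *Bcl2l11* (BIM), which was at 265, 244 and 268 in mutants and 158, 158 and 140.0 in controls (adjusted p = 0.0838, limma), and *Hrk* (Harakiri), which was at 602, 572 and 567 against 860.2, 937 and 783 (adjusted p = 0.0908, limma). *Bcl2l11* was called under 2 and *Hrk* under 1 of the 19 alternative settings. None of the 10 regulators of p53 and of mitotic surveillance passed the test either, and *Trp53* itself was at 155, 162 and 98.6 in mutants and 109, 113 and 98.8 in controls.

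Genes of the cell cycle gave no calls. For replication licensing and S phase, 10 of 26 genes were higher at an unadjusted p under 0.05 and 0 lower, with a median log2 fold change of 0.36. The corresponding counts were 8 and 0 of 30 for G2 and mitosis (median 0.29) and 3 and 0 of 18 for G1 cyclins, kinases and inhibitors (median 0.28). *Uhrf1*, which maintains DNA methylation at replication, was at 404, 386 and 440.0 in mutants and 224, 283 and 306 in controls (adjusted p = 0.150, limma). *Bub1b*, a spindle checkpoint kinase, was at 211, 156 and 178 against 117, 131 and 91.3 (adjusted p = 0.239, limma), and *Cdk6* at 671, 611 and 758 against 407, 415 and 539 (adjusted p = 0.127, limma). The mutants were thus above the controls in each of these 3 genes without passing the test across all genes, while the groups overlapped in *Cdk1* and *Cdk4*. All mutants were above all controls in 10 of 26, 9 of 30 and 4 of 18 genes of the 3 lists, against 7.15% of all genes.

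Among progenitor genes, *Ednrb* and *Dmrta2* rose. *Ednrb*, an endothelin receptor of radial glia, was at 187, 262 and 192 in mutants and 88.8, 111 and 90.0 in controls (log2 fold change 1.13 ± 0.21, SE, adjusted p = 0.0421, limma). *Dmrta2*, a transcription factor of cortical progenitors, was at 778, 762 and 946 against 445, 448 and 525 (0.81 ± 0.14, SE, adjusted p = 0.0320, limma). Of the 20 radial glia genes 7 were higher and 0 lower at an unadjusted p under 0.05 (median 0.24). *Vim*, the intermediate filament of radial glia, was at 7954, 8636 and 8605 in mutants and 5732, 6628 and 5971 in controls (0.46, adjusted p = 0.103, limma), while *Sox2* overlapped, at 1474, 2028 and 1969 against 1685, 2085 and 1847. Of 15 genes of intermediate progenitors none was called and 3 were higher at an unadjusted p under 0.05. The largest of these was *Nhlh1*, a bHLH factor of newborn neurons, at 278, 274 and 225 against 138, 142 and 160.0 (0.82, adjusted p = 0.0785, limma), and *Eomes* (TBR2) was at 774, 907 and 759 against 508, 677 and 691 (adjusted p = 0.368, limma). In the Notch pathway 4 of 17 genes were higher and 1 lower at an unadjusted p under 0.05, with none called, and *Hes5*, a Notch target in radial glia, was at 117, 142 and 139 in mutants and 58.7, 84.3 and 103 in controls.

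**Figure D4:**
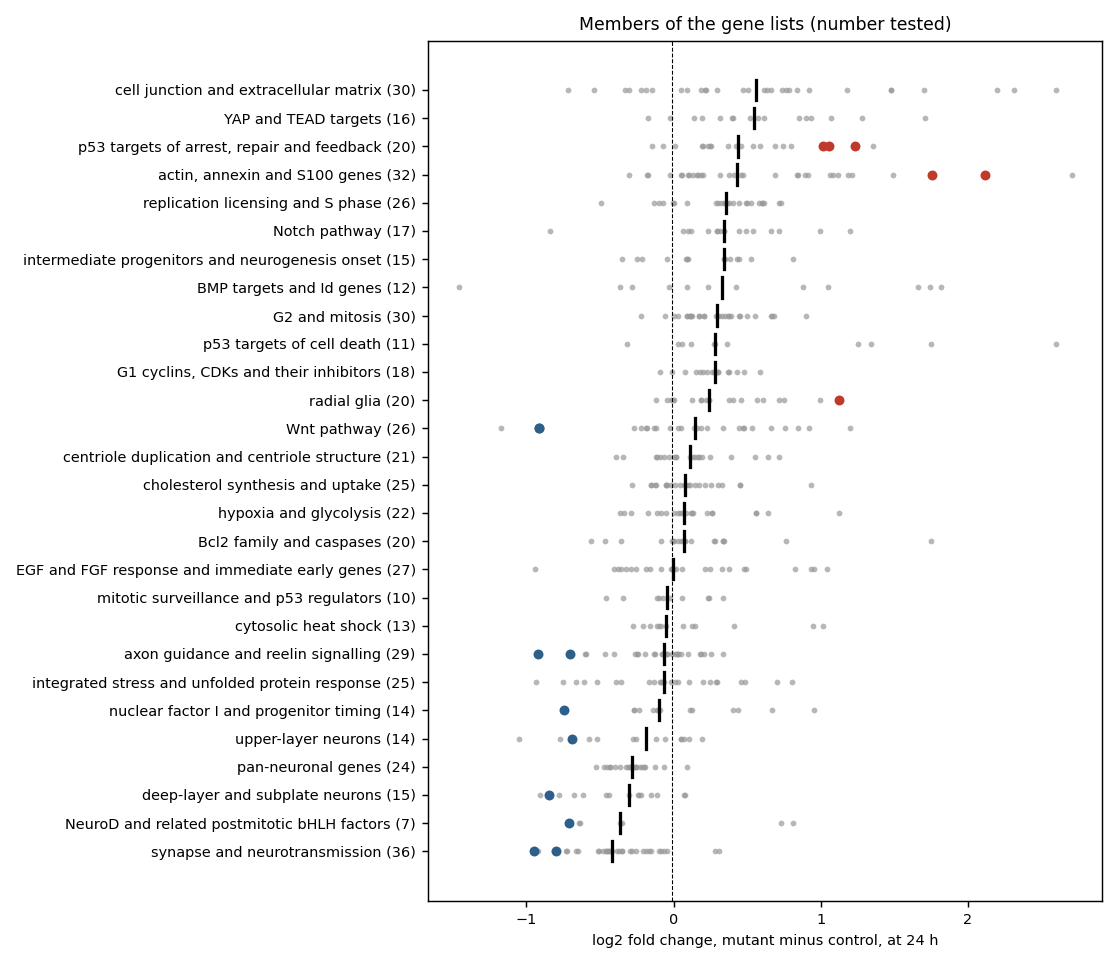
Log2 fold change of mutant over control at 24 h (x axis) for each tested member of 28 gene lists (grey points, with called members in red where higher and blue where lower), ordered by the median of the list (black bar), with the number tested in parentheses. The dashed line is the median of all genes tested, -0.01, and the synapse list lies lowest (-0.42) and the list of cell junction and matrix genes highest (0.56).

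The transcription factor genes *Neurod6*, *Fezf2*, *Mef2c* and *Nfix* fell. *Neurod6*, a bHLH factor of young glutamatergic neurons, was at 1503, 1180.2 and 1375 in mutants and 2497, 1921 and 2243 in controls (log2 fold change -0.71 ± 0.13, SE, adjusted p = 0.0425, limma). *Fezf2*, which specifies subcerebral projection neurons and is also expressed in progenitors, was at 744, 554 and 523 against 1114, 1092 and 1028 (-0.84 ± 0.15, SE, adjusted p = 0.0295, limma). *Mef2c*, a factor of neuronal maturation, was at 1307, 1012 and 1262 against 1799.7, 2140.2 and 1833 (-0.69 ± 0.13, SE, adjusted p = 0.0444, limma). *Nfix*, a nuclear factor I gene that acts in the switch of progenitors to differentiation, was at 2011, 2263 and 2222 against 3831, 3318 and 3728 (-0.74 ± 0.11, SE, adjusted p = 0.0150, limma). In none of these 4 genes did a mutant reach the lowest control. *Neurod2* was at 2726, 2278 and 3001 in mutants and 5174, 3153 and 4371 in controls (-0.64, adjusted p = 0.123, limma), and *Bhlhe22* at 1087, 938 and 992 against 1771, 1528 and 1408 (-0.64, adjusted p = 0.0562, limma). In the same list *Nhlh1* had the opposite sign, so that 4 of the 7 measured NeuroD and related factors were lower and 2 higher at an unadjusted p under 0.05.

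Synapse genes had the lowest median of the lists drawn in the plot of list members, -0.42, with 34 of 36 log2 fold changes below 0. Of these 20 were lower and 0 higher at an unadjusted p under 0.05, and 23 of the 36 had all mutants below all controls, against 9.06% of all genes. The 2 that fell past the threshold were *Cnih2* and *Adora1*. *Cnih2*, an auxiliary subunit of AMPA receptors, was at 901, 989 and 975 in mutants and 1775, 1459 and 1768 in controls (-0.80 ± 0.12, SE, adjusted p = 0.0150, limma). *Adora1*, the adenosine A1 receptor, was at 225, 195 and 251 against 522, 391 and 390.1 (-0.95 ± 0.17, SE, adjusted p = 0.0407, limma). The AMPA receptor subunit *Gria1* was at 663, 668 and 539.5 against 933, 1019.5 and 1005 (-0.67, adjusted p = 0.0562, limma), the calcium channel *Cacna1e* at 494, 340.1 and 509 against 779.7, 846 and 704 (-0.81, adjusted p = 0.0634, limma), and the kinase *Camk2b* at 414, 343 and 395 against 759, 586 and 570.1 (-0.72, adjusted p = 0.0714, limma). All mutants were below all controls in each of these 5 genes.

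Of the 24 genes found in all neurons none was called, 15 were lower and 0 higher at an unadjusted p under 0.05, and the median log2 fold change was -0.28. *Mapt* (tau) was at 5206, 5184 and 5232 in mutants and 7276, 6742 and 7076 in controls (-0.43, adjusted p = 0.106, limma), whereas *Tubb3* overlapped, at 6604, 5313 and 5479 against 6054, 5473 and 7509.8. In the lists of deep-layer and upper-layer neurons, 5 of 15 and 5 of 14 genes were lower at an unadjusted p under 0.05 and 0 higher, with *Fezf2* and *Mef2c* the only calls. The subplate and deep-layer factor *Nr4a2* was at 524, 379 and 488 against 944, 708 and 734 (-0.78, adjusted p = 0.0669, limma).

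In the axon guidance and reelin list *Chl1* and *Dab1* fell. *Chl1*, a close relative of the L1 adhesion molecule that guides axons, was at 2087, 2075 and 1872 in mutants and 3082, 3455 and 3282 in controls (-0.70 ± 0.11, SE, adjusted p = 0.0166, limma). *Dab1*, the adaptor of reelin signalling in migrating neurons, was at 538, 491 and 566 against 1149.7, 743 and 1196 (-0.92 ± 0.17, SE, adjusted p = 0.0420, limma). Of the 29 genes of axon guidance and reelin signalling, 5 were lower and 0 higher at an unadjusted p under 0.05, and the median was -0.06. Outside the lists, *Opcml*, a GPI-anchored adhesion molecule of neurons, was at 230.0, 218 and 186 against 471, 502 and 421 (-1.14 ± 0.16, SE, adjusted p = 0.0109, limma). *Nuak1*, an AMPK-related kinase of axon branching, was at 1288, 1290.5 and 1282 against 2325, 2140.2 and 2165 (-0.78 ± 0.11, SE, adjusted p = 0.0109, limma). *Chst2*, a sulfotransferase that modifies glycans, was at 794, 511 and 601 against 1546, 1326 and 1265 (-1.14 ± 0.16, SE, adjusted p = 0.0109, limma). In these 3 genes every mutant was below every control.

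The remaining called genes that fell were measured at lower or similar levels. *Nell2*, a secreted glycoprotein of neurons, was at 1404, 1172 and 1219 in mutants and 2175, 2251 and 2022 in controls, and *Jph4*, a junctophilin that ties the endoplasmic reticulum to the plasma membrane, at 732, 584 and 713 against 1193, 1129 and 1113. *Spock1*, a proteoglycan, was at 107, 93.1 and 115 against 268, 229 and 201, and *Ptprn*, a protein of dense-core vesicles, at 98.2, 155 and 127 against 261, 362 and 240.0. *Luzp2*, a leucine zipper protein, was at 70.9, 60.7 and 60.2 against 129.7, 160.1 and 154. The log2 fold changes of these 5 lay between -1.19 and -0.77. *St8sia5*, a sialyltransferase of gangliosides, was at 58.0, 31.4 and 39.3 against 126, 138 and 120.0 (-1.60 ± 0.28, SE, adjusted p = 0.0295, limma), and *Kcnv1*, a silent subunit of potassium channels, at 20.1, 10.1 and 6.98 against 65.5, 53.9 and 60.0 (-2.30 ± 0.44, SE, adjusted p = 0.0444, limma). *Kcnv1* had the largest fitted decrease of the 20 genes and the lowest level.

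Genes of the choroid plexus rose while *Rspo3*, a gene of the cortical hem that also strengthens Wnt signals, fell. *Ttr* (transthyretin) was at 7142, 16344 and 4826 in mutants and 1592, 3509 and 764 in controls (log2 fold change 2.35 ± 0.45, SE, adjusted p = 0.0444, limma). It was not called by edgeR (adjusted p = 0.0645) or by DESeq2 (adjusted p = 0.165). *Clic6*, an intracellular chloride channel of the choroid plexus, was at 35.1, 127 and 46.3 against 6.83, 11.8 and 6.25 (2.74 ± 0.52, SE, adjusted p = 0.0444, limma). *Sostdc1*, a secreted antagonist of BMP and Wnt signals, was at 221, 1115 and 218 against 53.3, 92.7 and 42.5 (2.65 ± 0.48, SE, adjusted p = 0.0407, limma). Mutant 2 was the highest mutant and control 4 the highest control in all 3 genes, and without mutant 2 *Sostdc1* alone of the 3 was called, with 1.87 as its lowest log2 fold change in these fits. Of the 13 measured genes of choroid plexus and hem, 10 were higher and 1 lower at an unadjusted p under 0.05, among them *Otx2*, at 186, 292 and 130.1 against 69.6, 74.1 and 104 (adjusted p = 0.0876, limma), *Aqp1*, at 45.9, 187 and 53.3 against 9.56, 27.0 and 17.5 (adjusted p = 0.106, limma), and *Folr1*, at 48.7, 128 and 38.4 against 9.56, 28.6 and 3.75 (adjusted p = 0.121, limma). The hem genes *Wnt3a* and *Wnt2b* were at 0 in all 6 libraries.

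*Rspo3* was at 537, 567 and 645 in mutants and 1258, 944 and 1111 in controls (-0.92 ± 0.14, SE, adjusted p = 0.0150, limma). *Wnt7b*, a Wnt ligand of cortical neurons, was at 406, 294 and 331 against 589, 719.6 and 629 (-0.92 ± 0.16, SE, adjusted p = 0.0295, limma). Other members of the Wnt list had either sign. *Wnt8b*, a ligand of the medial telencephalon, was at 67.4, 98.2 and 76.0 in mutants and 35.5, 38.8 and 28.8 in controls (1.20, adjusted p = 0.111, limma), and the planar polarity gene *Prickle1* at 104, 63.8 and 52.4 against 199, 142 and 144 (-1.17, adjusted p = 0.0936, limma). Of the 26 measured Wnt genes 3 were higher and 3 lower at an unadjusted p under 0.05.

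Transcripts of liver were present in the mutant cultures and almost absent from the controls. *Serpina1e*, an alpha-1-antitrypsin gene, was at 30.8, 34.4 and 113 in mutants and at 0 in each control. With a floor of 3 reads over the control group, this is at least 41.4-fold higher in mutants (fitted log2 fold change 5.66, adjusted p = 0.0144, limma), and reads may be shared with its near-identical copies. *Alb* (albumin) was at 27.2, 36.4 and 59.4 in mutants, from 142 reads, and at 0, 1.69 and 0 in controls, from 1 read. The ratio was 85.5, with a 95% interval from 15.1 to 3402 that covers counting error alone (exact binomial), and the adjusted p was 0.0284 (limma). Of the 19 hepatocyte genes 13 had 0 reads in all 3 controls and none had 0 reads in all 3 mutants, although *Hnf4a*, the defining transcription factor, reached at most 1.75. The share of all genes with this pattern was not counted. The mutant libraries also held more reads, and the part of depth was not tested. Of the 19 genes 7 passed the filter on low values, *Serpina1e* and *Alb* only through their mutant values. Presence of the liver transcripts changed from library to library of the same embryo. Their sum without *Ttr* was 61.0, 90.5 and 60.3 in the cortices of mutants 1, 2 and 6 and 65.9, 1314 and 1302 in those of controls 3, 4 and 5. At 12 h it was 637, 257 and 1200.3 in mutants and 25.2, 1826 and 1319 in controls.

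The list of actin, annexin and S100 genes, which also holds a lectin gene, gave 2 calls, both higher. Like the other lists, it was chosen with earlier results of these data known. *S100a6*, a calcium-binding protein of motile and dividing cells, was at 408, 1126 and 583 in mutants and 115, 211 and 134 in controls (log2 fold change 2.12 ± 0.30, SE, adjusted p = 0.0109, limma). *Lgals3*, the lectin galectin-3, was at 82.4, 182 and 94.3 against 38.2, 28.6 and 31.3 (1.76 ± 0.33, SE, adjusted p = 0.0420, limma). *Sparc*, a matrix glycoprotein outside the list, was at 771, 1860.3 and 831 against 269, 442 and 339 (1.63 ± 0.27, SE, adjusted p = 0.0273, limma). As with the choroid plexus genes, mutant 2 was the highest in all 3, and without mutant 2 *S100a6* and *Sparc* were called and *Lgals3* was not. Of the 32 measured genes of this list 15 were higher and 0 lower at an unadjusted p under 0.05 (median 0.43), and *Tagln2*, an actin-binding protein, was at 776, 855 and 732 against 321, 546 and 473 (adjusted p = 0.0679, limma).

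In 2 related lists no gene was called. YAP and TEAD targets had a median of 0.55, with 9 of 16 higher and 0 lower at an unadjusted p under 0.05, and cell junction and matrix genes one of 0.56, with 15 of 30 higher and 3 lower. *Ptpn14*, a phosphatase that binds YAP, was at 78.8, 157 and 69.8 in mutants and 28.7, 35.4 and 22.5 in controls (1.71, adjusted p = 0.0634, limma). *Hspg2* (perlecan), a proteoglycan of basement membranes, was at 91.0, 75.9 and 79.4 against 25.9, 23.6 and 38.8 (1.48, adjusted p = 0.0677, limma). *Clmp*, an adhesion molecule of junctions, went the other way, at 1548, 1088 and 1345 against 2372, 1941 and 2175 (-0.71, adjusted p = 0.0516, limma). Summed over its members, the junction and matrix list was lower in mutants, at 13133 to 13467 against 13800 to 14666 in controls. The YAP and TEAD sum was higher, at 3877 to 4623 against 3244 to 3539. The sums of choroid plexus, meningeal and fibroblast markers given above were also higher in mutants. The part of those cells in these differences was not tested.

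The other called genes that rose were *Frrs1l*, *Gm26917* and *Ebf2*. *Frrs1l*, an assembly factor of AMPA receptors (chromosome 4, 56957173 to 56990391, minus strand), was at 891, 357 and 544 in mutants and 135, 84.3 and 123 in controls (2.31 ± 0.28, SE, adjusted p = 0.00965, limma), the smallest adjusted p of the comparison. It was not on the synapse list. The noncoding RNA *Gm26917* (chromosome 17, 39843013 to 39846341, plus strand) lies beside *Gm42418*, with which it may share reads. Its values were 5975, 7307 and 5752 against 2172, 3507 and 2640.4 (1.21 ± 0.16, SE, adjusted p = 0.0109, limma), in the direction of the *Gm42418* share. *Ebf2*, a factor of Cajal-Retzius cells, was at 77.4, 109 and 99.5 against 25.9, 35.4 and 32.5 (1.58 ± 0.29, SE, adjusted p = 0.0420, limma).

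The lists for heat shock, the integrated stress response, hypoxia and glycolysis, cholesterol synthesis, interferon response, BMP targets and growth factor response gave no calls. Their medians lay between -0.06 and 0.33, and those for heat shock, growth factor response, the integrated stress response and hypoxia changed sign under 6, 5, 2 and 1 of the alternative settings. For growth factor response, which follows the EGF and FGF of the medium, 3 of 27 genes were higher and 2 lower at an unadjusted p under 0.05. *Asns*, a target of the integrated stress response, was at 279, 165 and 237 in mutants and 423, 356 and 349 in controls (-0.75, adjusted p = 0.131, limma), and *Id1*, a BMP target, at 45.1, 67.8 and 48.9 against 10.9, 15.2 and 25.0 (1.66, adjusted p = 0.111, limma).

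The genotype effect at 24 h was compared with that in the other libraries. Against 12 h, an interaction term called 0 of 13359 genes (limma, 318 at an unadjusted p under 0.05). Against the E14.5 cortex it called 0 of 13579 (limma, 836 at an unadjusted p under 0.05), and 6 (0.0442%) with the embryo as a block, since each embryo gave both libraries. *S100a6*, *Serpina1e* and *Alb* were the called genes among these 6. All 16 genes that rose and all 20 that fell at 24 h had the same sign at 12 h in the same embryos, with medians of 0.79 and -0.62 against 1.69 and -0.92 at 24 h. None of them passed the test at 12 h, where *Frrs1l* had the smallest adjusted p among them (0.0549, limma). Of all genes tested at 12 h, 47.8% had a positive and 52.2% a negative log2 fold change. At 12 h 9 of the 16 had all mutants above all controls, as did 5.09% of all genes, and 10 of the 20 had all mutants below, as did 5.94%. In the E14.5 cortices 10 of 16 and 17 of 20 had the same sign, with medians of 0.22 and -0.36, where 51.7% of all genes were positive and 48.3% negative. There 7 of the 16 had all mutants above all controls, as did 7.02% of all genes, and 10 of the 20 had all mutants below, as did 6.71%. *Frrs1l* (2.41, adjusted p = 0.00796), *Gm26917* (1.24, adjusted p = 0.0187) and *Neurod6* (-0.87, adjusted p = 0.0481) passed the test there too (limma). *Ttr* (-0.45), *Clic6* (-0.01) and *Sostdc1* (-0.12) did not, and their sign there rested on mutant 6. *Ttr* was at 7339, 5991 and 681 in the cortices of mutants 1, 2 and 6 and 4899, 5083 and 3055 in those of controls 3, 4 and 5, and mutants 1 and 2 were above every control in all 3 genes. Without mutant 6 the log2 fold changes were 0.65, 0.73 and 0.98 (adjusted p = 0.245, 0.272 and 0.195, limma), and 13 of 16 and 16 of 20 genes had the same sign as at 24 h, with medians of 0.65 and -0.32. A field of the labels gives this cortex an age of E11.5, while its title and source give E14.5, which was followed.

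The E11.5 cortices came from other embryos, and for 2 of the mutants the column name and the title differ by a letter and were matched through the description. Of the 16 genes that rose at 24 h, 14 had the same sign there, and 7 had all mutants above all controls, as did 7.16% of the genes tested at E11.5. They were *Cdkn1a* (log2 fold change 1.16), *Ccng1*, *Psrc1* (0.20), *Gm26917* (1.64), *S100a6* (0.56), *Sparc* (0.37) and *Clic6* (0.96). Of the 17 genes that fell and were measured at E11.5, 13 had the same sign, and *Chst2*, *Nuak1*, *Nfix*, *Cnih2* and *Dab1* had all mutants below all controls, as did 6.11% of all genes. Of all genes tested at E11.5, 52.9% had a positive and 47.1% a negative log2 fold change. None of the 36 passed the test at E11.5. *Cdkn1a* was at 466 to 554 in the 3 E11.5 mutants and 159 to 281 in the controls. *Frrs1l* was at 137 to 253 in the E11.5 mutants and 117 to 262 in the controls, so that the groups overlapped there.

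**Figure D5:**
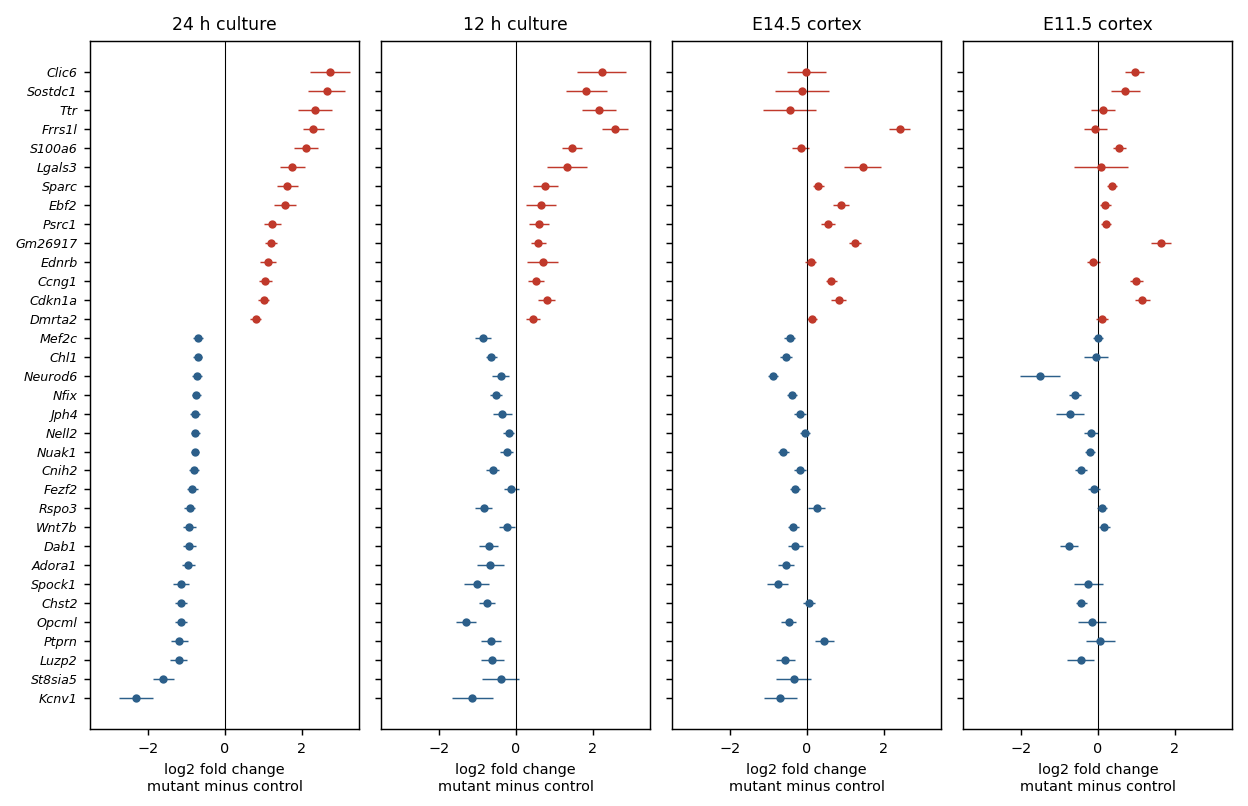
Log2 fold change of mutant over control (points, with bars of 1 SE) of the called genes other than *Alb* and *Serpina1e*, in the 24 h and 12 h cultures, the E14.5 cortices of the same embryos and the E11.5 cortices of others, with 3 libraries per group and a gap where a gene was not tested. Genes that rose at 24 h are red and those that fell are blue, and *Frrs1l* stands at 2.31, 2.59, 2.41 and -0.07 in the 4 panels while *Cdkn1a* stands at 1.02, 0.80, 0.83 and 1.16.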

How the data were processed

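RNA of 24 mouse libraries was sequenced with a 3′ kit primed at the polyA tail, and the 6 libraries of 24 h neurospheres were compared here. The authors aligned reads to GRCm38 with TopHat2 2.0.10 and Bowtie 1.0.0 and counted them on GENCODE genes with HTSeq 0.6.1 by strand. The deposited values are a normalized signal, read counts divided by 1 size factor per library, for 54658 genes, and whole reads could be recovered from 100% of the values above 0 (tolerance 0.01). Depth was 4732781 to 11645213 reads per library.

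Genes averaging at least 10 were tested with limma 3.58.1 (R 4.3.3, trend) on log2(value + 1), with a pseudocount of 1, Benjamini-Hochberg adjustment and a threshold of 0.05. Fold changes of low genes are understated on this scale. edgeR 4.0.16 and DESeq2 1.42.0 were run on recovered reads as alternatives. Single values were compared with exact permutation tests (scipy 1.17.1). In simulated data of this comparison with 13300 genes and 200 changed, limma recovered 113 changed by 2-fold with 6 false calls, and 173 changed by 4-fold with 15 false calls.

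Members and lists were chosen with earlier results of these data known. Named genes were *Cep135*, *Cdkn1a*, every called gene, and up to 3 members of each list with the lowest unadjusted p under 0.05. *Trp53*, *Mdm2*, *Bax*, *Sox2*, *Tubb3*, *Wnt3a*, *Wnt2b* and *Hnf4a* fall outside this rule and were named after their values were seen. Each library is 1 embryo. Embryo numbers pair cultures and cortices of the same animals and do not pair mutants with controls.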

Additional observations from a re-analysis of the deposited data

Results flagged for a closer look

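With the embryo as a block, the genotype effect at 24 h differed from that in the E14.5 cortex in 6 genes (limma), and without the block in 0. The values below are the log2 fold change at 24 h minus that in the cortex. *S100a6* differed by 2.28 (adjusted p = 0.0283, 0.185 without the block, limma), with 80.2, 132 and 108 in mutant cortices and 126, 99.4 and 128 in control cortices. *Serpina1e* differed by 10.7 and *Alb* by 10.3 (adjusted p = 0.0348 for both, 0.185 and 0.219 without the block, limma). Both liver genes were at 0 in the 3 mutant cortices, while *Alb* was at 0, 319 and 289 and *Serpina1e* at 0, 176 and 220 in the control cortices. The log2 fold changes in the cortex, -5.50 for *Alb* and -5.09 for *Serpina1e*, thus rest on controls 4 and 5. Those at 24 h, 4.85 for *Alb* and 5.66 for *Serpina1e*, make up the rest of these differences. *Myl12a*, a myosin light chain, differed by 1.36, *Rn7sk*, a small nuclear RNA, by -1.87 and *Calcoco1* by -1.58 (adjusted p = 0.0381 for the 3, 0.528, 0.219 and 0.280 without the block, limma). *Myl12a* and *Calcoco1* were named because of these values.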

How the results depend on the processing

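The 36 calls at 24 h became 105 at an adjusted p under 0.1, 140 with no filter on low values, 182 with DESeq2, 7 when all 12 cultures were fitted together, 4 with a term for embryo sex and 0 with a term for the *Gm42418* share (limma, 644 at an unadjusted p under 0.05). The sex term kept 1 of the 36 and DESeq2 kept 35, all but *Ttr*. Leaving out 1 library gave 7 (without control 3) to 46 (without control 4) calls. The other settings gave 25 to 46 calls. None of the 36 changed sign under any setting. The cause of these changes was not tested. Below the threshold, the log2 fold change turned negative with the *Gm42418* term for *Cep135* (-0.34), *Cdk4* (-0.092), *Lfng* (-0.045), *Hspb1* (-0.085), *Folr1* (-0.071) and *Lars2* (-0.30).

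With the embryo as a replicate block, the pairing of libraries of the same animal, the difference from 12 h kept 0 calls (468 at an unadjusted p under 0.05, limma) and that from the E14.5 cortex went from 0 to 6. Leaving out 1 embryo gave 0 to 1 calls against 12 h and 0 to 16 against the cortex, and both highest counts came without control 3. With 3 embryos a group and unequal depth, sex and *Gm42418* share, genotype cannot be told apart from these differences between the libraries. In the E14.5 cortex alone, leaving out mutant 6, a setting chosen after seeing the data, moved the calls from 10 to 30 and turned *Ttr* to 0.65, *Clic6* to 0.73 and *Sostdc1* to 0.98. The median of 12 of 39 gene lists changed sign under at least 1 setting.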
